A study of Mus musculus with 10 samples.

Results

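Integrins are paired alpha and beta subunits at the cell surface that bind proteins of the extracellular matrix or of other cells and link them to the cytoskeleton. In the heart, VCAM1 on myocardial cells is a known ligand of the integrin that ITGA4 forms with ITGB1 on epicardial cells, and the loss of either partner is known to disturb the attachment of the epicardium. Epicardial cells rest on a laminin-containing basement membrane, and the cells that leave by epithelial-to-mesenchymal transition enter a matrix with fibronectin. Described here is the open chromatin at 10 mouse genes of this system, the integrin subunit genes Itga4, Itga5, Itga6, Itga8, Itga9, Itgav, Itgb1, Itgb4 and Itgb8 together with Vcam1. A region belonged to a gene when the summit of an ATAC-seq peak, its point of highest signal, lay inside the gene or within 25 kb of it on mm10, and it was a promoter region when it lay within 1 kb of the annotated gene start. Of 184764 regions reaching 250 bp to either side of a summit, 235 belonged to the 10 genes, and 128 of these, of 108772 in all, had a value in at least 3 libraries and were tested. The other 107 were not tested, and Itga9 held the most of either kind, with 35 tested and 37 untested regions.

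Nuclei of sorted embryonic heart cells were profiled by bulk ATAC-seq, in which a transposase cuts accessible DNA. All embryos were C57BL/6J carrying Rosa26tdTomato;Wt1CreERT2/+, and all dams received tamoxifen by gavage at E9.5, so every group shares the reporter, the Wt1-driven Cre and the drug, and tdTomato marks cells that used the Wt1 promoter at about that time and their descendants. Epicardium was sorted as CD31-tdTomato+PDPN+ cells at E11.5 (3 libraries) and E17.5 (3 libraries), and epicardium-derived cells (EPDCs) as CD31-tdTomato+PDPN- cells at E12.5 (1 library) and E13.5 (2 libraries). Per the labels, each sample pooled littermate hearts, 6 at E11.5, 4 to 13 at E13.5 and 4 at E17.5, with no number given for E12.5, and 40000 to 50000 cells were sorted; the study's methods give other ranges for the E13.5 hearts and the cells. The 10 samples gave 9 peak lists, because 2 technical replicates of an E13.5 sample were merged by the authors. The lists held 94909 to 142743 summits, of which 104 to 190 belonged to the 10 genes.

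Each value below is a rank percentile. In every library the 94909 strongest summits were ranked by the deposited −log10 p-value, and a region took the percentile of its strongest summit, from near 0 for the weakest to 100 for the strongest. A value of 0 means that no summit in the region was among these, not that the chromatin was closed, and it can also arise where a summit shifted just outside the region. A value says where a region stood among the regions of its own library, not how many reads it had, since the deposited lists give no read depth. The background level, in fragments, that solved the listed fold enrichments and p-values for 89.9% to 99.4% of summits was 2.07 in E17.5 replicate 1, 3.24 to 4.26 in 7 libraries and 10.9 in E13.5 replicate 2, the merged list, so depth was unequal. Regions were compared by limma with adjustment over all 108772 tested regions, and a region counted as higher or lower at an adjusted p under 0.05 together with a difference of at least 10 percentile points. A region with a value in only 1 group met the rule of at least 3 libraries through that group alone. The 0 values of its other groups had no spread, so its call adds no support beyond the values. Values are given in the order of replicates 1 to 3 for each epicardial stage, and as E12.5, E13.5 replicate 1 and E13.5 replicate 2 for EPDCs. Differences carry their standard error (SE).

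The sorted identities were checked at marker promoters. Of 12 epicardial promoters, Wt1, Tbx18, Tcf21 and Pdpn ranked high in all 9 libraries, and the mesothelial gene Upk3b stood at 97.0 to 98.7 in the 6 epicardial libraries and at 71.6, 12.46 and 25.2 in EPDCs. Msln, Krt8, Krt18 and Krt19 were higher at E17.5 than in both other groups, Msln and Krt19 being at 0 in all E11.5 and EPDC libraries, and Upk3b and Upk1b were lower in EPDCs than at both stages. Summed over the 12 promoters the ranks ranged from 727 to 796 at E11.5, from 986 to 1020 at E17.5 and from 643 to 748 in EPDCs. Of 8 mesenchymal promoters, 4 were higher in EPDCs than at E11.5 (Pdgfra, Col3a1, Postn and Lum) and none lower, with sums from 356 to 450 at E11.5, from 469 to 517 at E17.5 and from 557 to 595 in EPDCs. Postn had the value 0 in the E11.5 libraries, 32.9 to 44.6 at E17.5 and 69.6 to 76.1 in EPDCs, whereas Col1a1 was lowest at E17.5 (86.8 to 93.1 at E11.5, 59.6 to 63.8 at E17.5, 84.5 to 92.2 in EPDCs) and Dcn was highest at E11.5 (95.02 to 96.1, against 88.3 to 90.8 and 84.5 to 86.5). Of 6 endothelial promoters, Pecam1, Cdh5, Emcn and Tie1 had no ranked summit in any library, while Kdr and Tek ranked high in all. Cardiomyocyte promoters moved in both directions: Myl7 was higher at E17.5 (57.4 to 69.4) than at E11.5 (1.08 to 16.3) or in EPDCs (0), while Tnnt2 was lower at E17.5 (45.9 to 63.0) than at E11.5 (81.8 to 84.6) or in EPDCs (76.3 to 77.4), as was Actn2 (77.8 to 80.1, against 89.3 to 91.7 and 87.7 to 89.5), and Myh6, Ttn and Nppa had no value above 0. The macrophage gene Cd68 was highest at E17.5 (71.2 to 73.0, against 28.8 to 51.1 at E11.5 and 0 to 11.9 in EPDCs), whereas the blood genes Ptprc, Spi1, Csf1r and Itgam had no ranked summit. Summed over the 6 cardiomyocyte promoters the ranks ranged from 177 to 187 at E11.5, from 191 to 209 at E17.5 and from 165 to 167 in EPDCs, and over the 6 blood promoters from 84.9 to 124, from 131 to 146 and from 50.1 to 76.2. The part of other cell types in the differences below was not tested. The EPDC lists held 252 to 268 summits on unplaced or mitochondrial sequences where the epicardial lists held 0, so embryonic day, PDPN gate and the handling of the lists coincide with the EPDC group and cannot be told apart.

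Between the epicardial stages, 18 of the 128 integrin and Vcam1 regions were higher at E17.5 than at E11.5 (14.1%, against 17.7% of all tested regions) and 27 were lower (21.1%, against 21.3%). EPDCs were higher than the E11.5 epicardium at 29 regions (22.7%, against 18.5% of all) and lower at 15 (11.7%, against 20.9%). Against the E17.5 epicardium they were higher at 45 (35.2%, against 26.0%) and lower at 22 (17.2%, against 23.7%). The shares for the stage comparison were thus near or under those of all regions, and those of both EPDC comparisons were above them in the higher direction and under them in the lower. Itga9 carried much of the excess: among the 93 regions of the other 9 genes, EPDCs were higher than E11.5 at 16 (17.2%) and lower at 14 (15.1%), and higher than E17.5 at 25 (26.9%) and lower at 19 (20.4%), so that the higher shares were near those of all regions. The median difference of the 128 regions was -0.125, 2.28 and 4.77 points in the 3 comparisons, where that of all regions was 0.0, -0.23 and 0.0. The comparisons share libraries and are not independent of each other. Without the 8 regions at the start of another protein-coding gene the counts were 17 higher and 27 lower, 29 and 15, and 45 and 20. Without E13.5 replicate 2, the library of highest background, they were 17 and 23, 28 and 15, and 40 and 20.

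**Figure D1:**
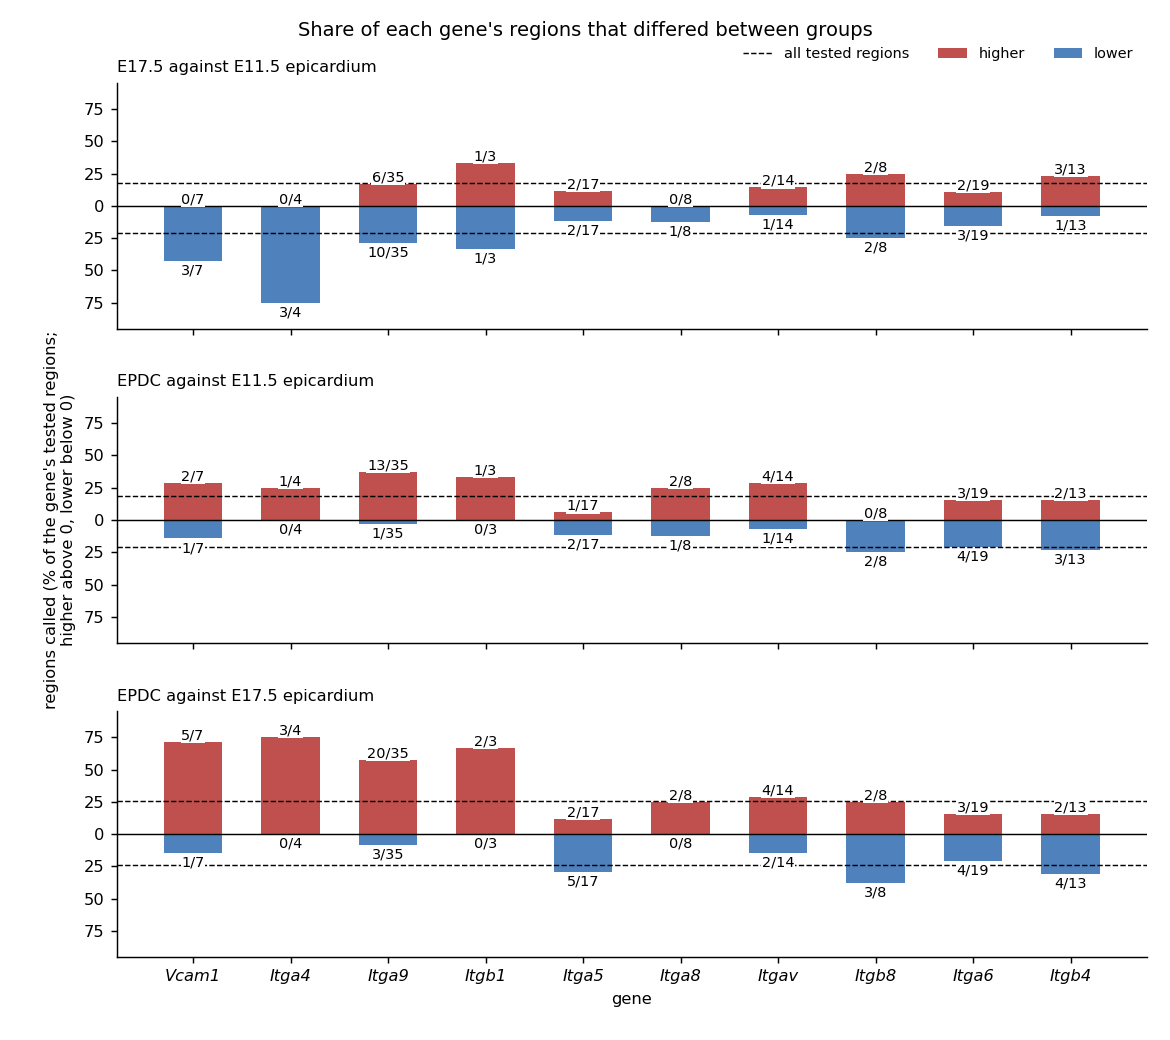
Percent of each gene's tested regions that were higher (red, upward) or lower (blue, downward) in each comparison, with the counts printed at the bars and dashed lines for all tested regions. Itga9 had 20 of 35 regions higher in EPDCs than in the E17.5 epicardium and Itga4 3 of 4, whereas Itga5 had 2 of 17 higher and 5 lower.

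EPDCs stood above both epicardial stages at 28 regions (21.9%, against 15.5% of all tested regions) and below both at 9 (7.03%, against 9.37%). Itga9 held 12 of the 28 and none of the 9. Itgav followed with 4 higher and 1 lower, and Itga6 with 3 in each direction. Itga8 had 2 higher and none lower, Vcam1 2 and 1, Itgb4 2 and 2, Itga5 1 and 1, Itga4 and Itgb1 1 and none, and Itgb8 none and 1.

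The regions also fell into patterns of presence, each counted where every library of the groups named had a value above 0 and no other library had one. A value above 0 in all 9 libraries was found at 50 of the 128 (39.1%, against 36.8% of all). Presence in E11.5 and EPDC libraries and in no E17.5 library was found at 13 (10.2%, against 4.10%). Of these, 7 were at Itga9, 2 at Itgb8 and 1 each at Itga4, Itga5, Itgb4 and Vcam1. The same pattern held at 12 of the 13 when overlapping peak intervals with a ranked summit were counted. Intervals holding only weaker summits were left out, so that count cannot show that the E17.5 lists held no peak there. In contrast, 3 regions had a value only in E17.5 libraries (2.34%, against 6.84%), 2 of them at Itga6 and 1 at Itga9. A value in EPDC libraries alone was found at 11 (8.59%, against 6.86%), 6 of them at Itga9. The remaining patterns were rare, with 3 regions in all 6 epicardial libraries and no EPDC library (2.34%, against 3.01%), 1 only at E11.5 (0.781%, against 3.44%) and 1 at E17.5 and in EPDCs but not at E11.5 (0.781%, against 1.21%).

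**Figure D2:**
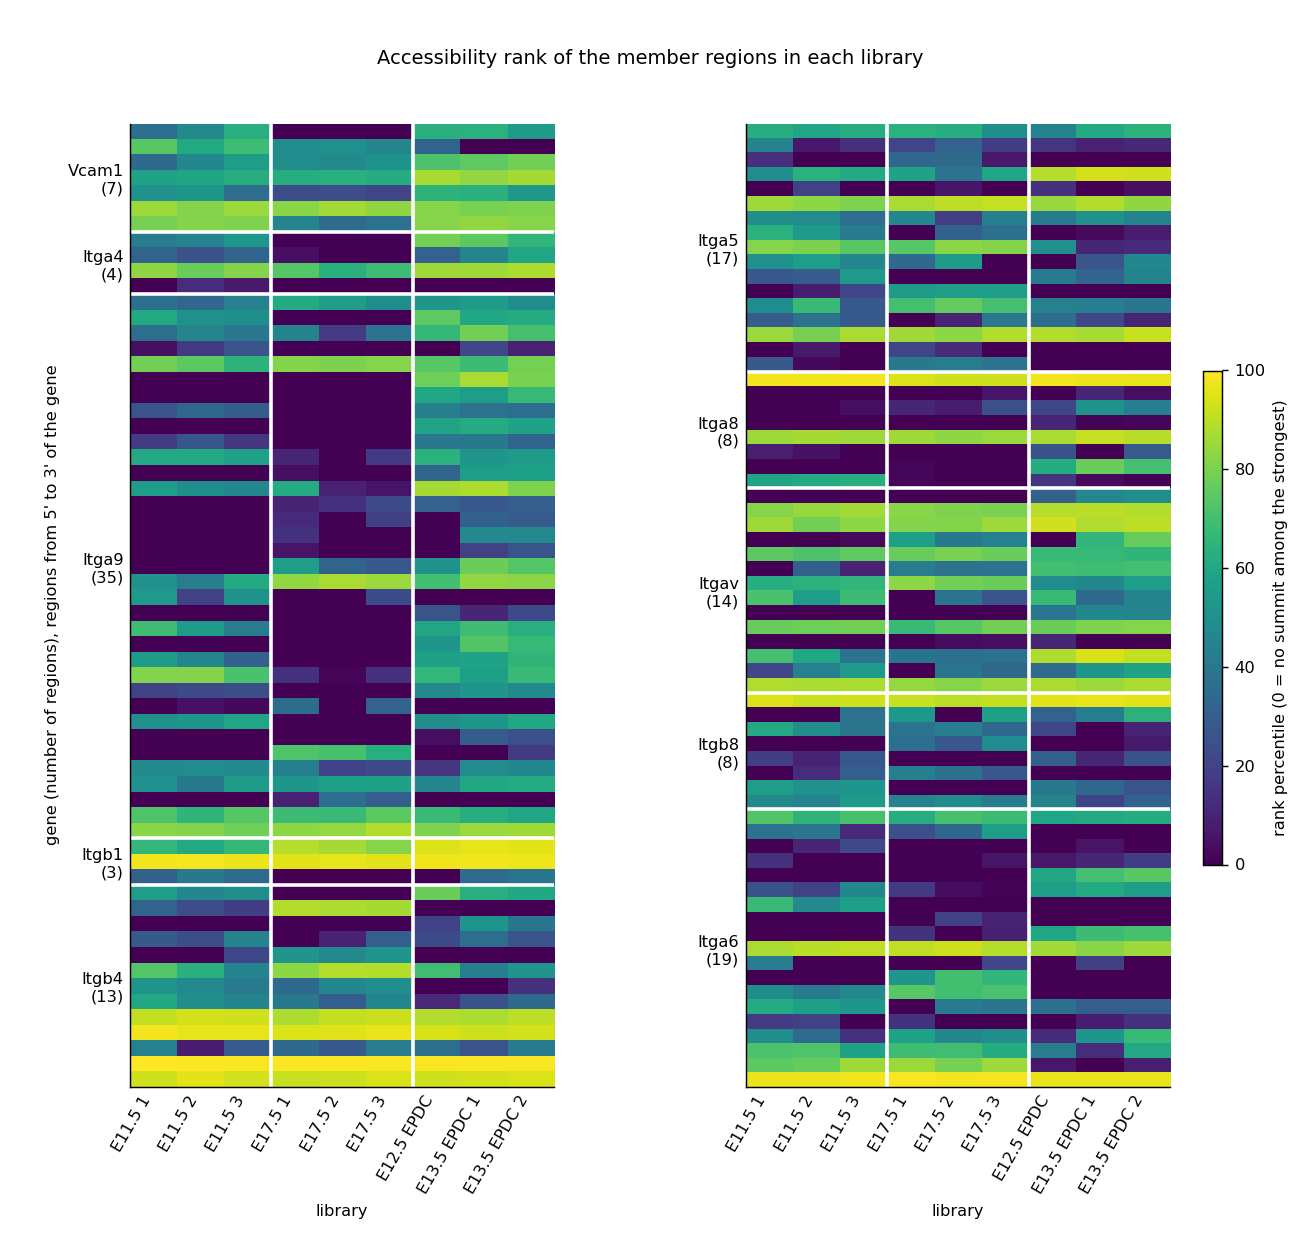
Rank percentile (colour, 0 to 100) of the 128 tested regions (rows, by gene and from 5' to 3' within it) in the 9 libraries (columns), with white lines between genes and groups. At Itga9 many rows are dark in the E17.5 columns and light in the EPDC columns, whereas the Itgb1 promoter row stays near the top in all libraries (95.6 to 98.8).

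Each of the 10 genes had a promoter region, and in the stage comparison 1 was higher at E17.5 (Itgb4) and 1 lower (Itga4), against 10.5% higher and 6.96% lower among 16897 protein-coding promoter regions. That set holds every tested region within 1 kb of a gene start, whereas only the strongest was taken for each of the 10 genes. EPDCs were higher than the E11.5 epicardium at 2 (Vcam1 and Itga6) and lower at none, where 8.79% and 6.23% of all promoter regions were called. Against E17.5 they were higher at 3 (Vcam1, Itga4 and Itga6) and lower at 1 (Itgb4), where 11.1% and 11.8% were called. With 10 promoters, each of these counts rests on at most 3 genes. The Itga6 region counted is that at its outermost start, with a value in EPDCs alone. A region at another Itga6 start, 41.33 kb downstream, was called in no comparison.

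**Figure D3:**
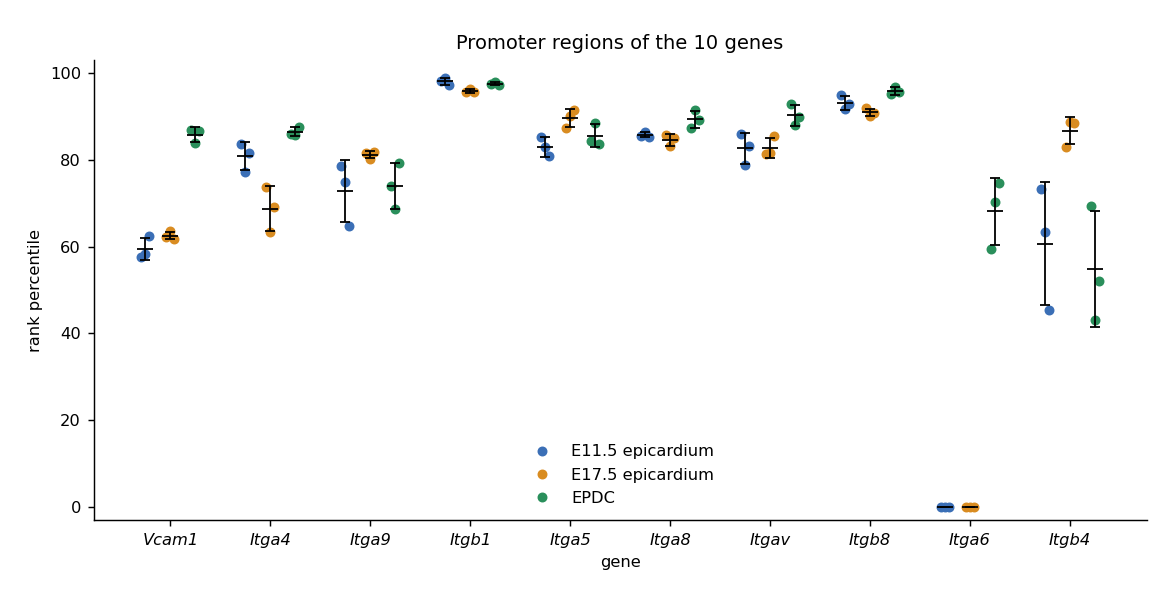
Rank percentile of the promoter region of each of the 10 genes in each library (points), with the mean and SD of the 3 libraries of a group (bars). Vcam1 separates EPDCs (83.8 to 86.9) from both epicardial stages (57.7 to 63.5), and Itgb4 is highest at E17.5 (83.0 to 88.7).

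Vcam1 (chr3:116109949-116129688, minus strand) encodes the cell-surface ligand of the integrins formed by ITGA4 or ITGA9 with ITGB1. Its promoter region, chr3:116129247-116129747 in the first exon and an intron of the transcript Gm43109, had the values 57.7, 58.4 and 62.4 at E11.5, 62.2, 63.5 and 61.8 at E17.5 and 86.9, 83.8 and 86.6 in EPDCs. Every EPDC library lay above all 6 epicardial libraries, while the epicardial stages overlapped. EPDCs exceeded E11.5 by 26.3 points (SE 2.37, limma adjusted p = 4.97e-05) and E17.5 by 23.2 points (SE 2.37, adjusted p = 5.41e-05). Ranking by fold enrichment in place of the p-value left 9.81 points over E17.5, which no longer passed.

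At 3 other Vcam1 regions the E17.5 libraries stood below both other groups. An intergenic region 24.62 kb downstream of the start, beyond the end of the gene, stood at 79.6, 81.5 and 80.8 at E11.5, at 45.7, 35.5 and 37.3 at E17.5 and at 81.8, 83.8 and 82.0 in EPDCs. The E17.5 libraries lay apart below both other groups, and the difference from E11.5 was -41.2 (SE 3.13, adjusted p = 1.77e-05). EPDCs exceeded E17.5 by 43.0 points (SE 3.13, adjusted p = 7.5e-06) and differed from E11.5 by 1.89 (adjusted p = 0.694). A region 20.6 kb upstream had 36.4, 47.0 and 62.7 at E11.5, 0 in all E17.5 libraries and 63.5, 63.8 and 55.1 in EPDCs, and no E17.5 list held any summit there. It was lower at E17.5 than at E11.5 (-48.7, SE 6.69, adjusted p = 0.000482) and higher in EPDCs than at E17.5 (60.8, SE 6.69, adjusted p = 8.48e-05). The third, 2912 bp from the start inside the gene and outside the rule for named regions, had 50.4, 52.9 and 35.7 at E11.5, 23.5, 23.6 and 20.8 at E17.5 and 64.6, 63.4 and 53.4 in EPDCs (-23.7 for E17.5 against E11.5, SE 5.91, adjusted p = 0.0113, and 37.9 for EPDCs against E17.5, SE 5.91, adjusted p = 0.000669). The central 299 bp of the region 20.6 kb upstream are shown because it was among the regions with no E17.5 summit; the capitals mark an E-box (CAGCTG, a sequence bound by many basic helix-loop-helix factors).
Vcam1 region 20.6 kb upstream, chr3:116150136-116150434, GRCm38.p6 (mm10), plus strand: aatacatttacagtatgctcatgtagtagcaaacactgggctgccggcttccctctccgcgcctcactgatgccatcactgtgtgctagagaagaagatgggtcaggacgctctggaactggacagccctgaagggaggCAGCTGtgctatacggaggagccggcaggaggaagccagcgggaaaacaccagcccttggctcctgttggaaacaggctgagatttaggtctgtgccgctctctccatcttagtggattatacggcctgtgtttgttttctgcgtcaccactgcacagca

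The neighbouring Vcam1 regions went in different directions. At 8.52 kb upstream, the values were 34.8, 46.8 and 56.1, then 49.5, 46.9 and 50.9, then 71.9, 75.1 and 78.5 in EPDCs, which lay 29.3 points above E11.5 (SE 5.60, adjusted p = 0.00311) and 26.1 above E17.5 (SE 5.60, adjusted p = 0.00398). At 11.73 kb upstream, EPDCs were lower instead, with 31.8, 0 and 0 against 74.1, 60.8 and 69.1 in the E11.5 and 48.7, 50.4 and 45.7 in the E17.5 libraries. The difference was -57.4 against E11.5 (SE 8.71, adjusted p = 0.000913) and -37.7 against E17.5 (SE 8.71, adjusted p = 0.0059). An intronic region 15 kb into the gene differed in no comparison.

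Itga4 (chr2:79255426-79333123, plus strand) encodes the alpha subunit that binds VCAM1 and fibronectin. Its promoter region, in the first exon, had 83.5, 77.3 and 81.5 at E11.5, 73.8, 63.3 and 69.1 at E17.5 and 85.9, 85.7 and 87.6 in EPDCs. The 3 groups did not overlap, and E17.5 was lowest. It was lower at E17.5 than at E11.5 (-12.0, SE 2.75, adjusted p = 0.00749) and higher in EPDCs than at E17.5 (17.7, SE 2.75, adjusted p = 0.000659). These calls depended on the ranking: by fold enrichment the first difference reversed to 14.2 and the second became -0.755, and without E17.5 replicate 2 the first was -9.32, short of 10 points.

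The 2 upstream Itga4 regions showed the same order of groups more strongly. At 13.72 kb upstream (chr2:79241453-79241953, intergenic), the values were 42, 44.9 and 52.6 at E11.5, 0 in all E17.5 libraries, with no summit listed, and 79.2, 74.9 and 65.7 in EPDCs. All 3 differences passed, with -46.5 for E17.5 against E11.5 (SE 5.14, adjusted p = 0.000142), 26.8 for EPDCs against E11.5 (SE 5.14, adjusted p = 0.00316) and 73.3 for EPDCs against E17.5 (SE 5.14, adjusted p = 6.12e-06). The difference between EPDCs and E11.5 ranged down to 16.4 over the alternatives on the percentile scale, and on the log2 depth-normalized score it was 0.94, short of the 1 required there. At 11.82 kb upstream the values were 32.4, 24.7 and 32.7, then 3.97, 0 and 0, then 31.6, 45.4 and 59.0, so that E17.5 lay below both other groups, which differed from each other by 15.4 (adjusted p = 0.0905). The more distal region is shown because it separated all 3 groups, with 2 E-boxes (CAGCTG) in capitals.
Itga4 region 13.72 kb upstream, chr2:79241554-79241852, GRCm38.p6 (mm10), plus strand: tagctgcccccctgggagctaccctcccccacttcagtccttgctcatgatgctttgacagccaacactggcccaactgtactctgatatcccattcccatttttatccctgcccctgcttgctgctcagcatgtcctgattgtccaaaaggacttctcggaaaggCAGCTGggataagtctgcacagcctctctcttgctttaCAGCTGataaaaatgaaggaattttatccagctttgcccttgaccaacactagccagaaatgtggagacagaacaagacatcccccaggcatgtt

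Itga9 (chr9:118606690-118901003, plus strand) encodes the alpha subunit closest in kind to ITGA4, which binds VCAM1, tenascin-C and other ligands. Its promoter differed in no comparison, with 78.6, 74.9 and 64.7 at E11.5, 81.5, 80.2 and 81.8 at E17.5 and 73.9, 68.6 and 79.2 in EPDCs. Its 294 kb body and flanks held 27, 28 and 27 of the ranked summits at E11.5, 23, 16 and 21 at E17.5 and 34, 38 and 44 in EPDCs. The groups did not overlap in any of the 3 comparisons, and each gave p = 0.10 in a two-sided exact permutation test, the smallest that 3 against 3 libraries allow. Itga8 was the other gene whose summit number set EPDCs apart from both stages, with 5, 6 and 6, then 7, 3 and 4, then 9, 10 and 13 (exact permutation p = 0.10 for both). Against E11.5 alone, EPDCs had fewer summits at Itga5 (12, 14 and 13, against 18, 17 and 15) and more at Itgav (14, 14 and 13, against 9, 12 and 11). Each gave exact permutation p = 0.10. Counted over all summits of each list, Itga9 had 34, 48 and 43 at E11.5, 23, 34 and 25 at E17.5 and 35, 50 and 64 in EPDCs, and Itga8 had 11, 13 and 12, then 7, 10 and 4, then 10, 17 and 18. On that count EPDCs overlapped E11.5 at both genes, the epicardial stages met at 34 for Itga9, and EPDCs met E17.5 at 10 for Itga8.

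Of the 35 tested Itga9 regions, 6 were higher and 10 lower at E17.5 than at E11.5. EPDCs were higher at 13 and lower at 1 against E11.5, and higher at 20 and lower at 3 against E17.5. The strongest gain was in an intron 23.42 kb from the start, where no epicardial list held a summit and the EPDC values were 77.8, 87.3 and 79.7. The difference was 81.6 against either stage (SE 3.65). It was called under all alternatives run, but the region met the rule of a value in at least 3 libraries through EPDCs alone. With every epicardial value at 0, the call adds no support beyond these values. The 5 other regions with a value in EPDCs alone also lay in introns, 45.5, 67.8, 167.9, 188.2 and 271.1 kb from the start.

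**Figure D4:**
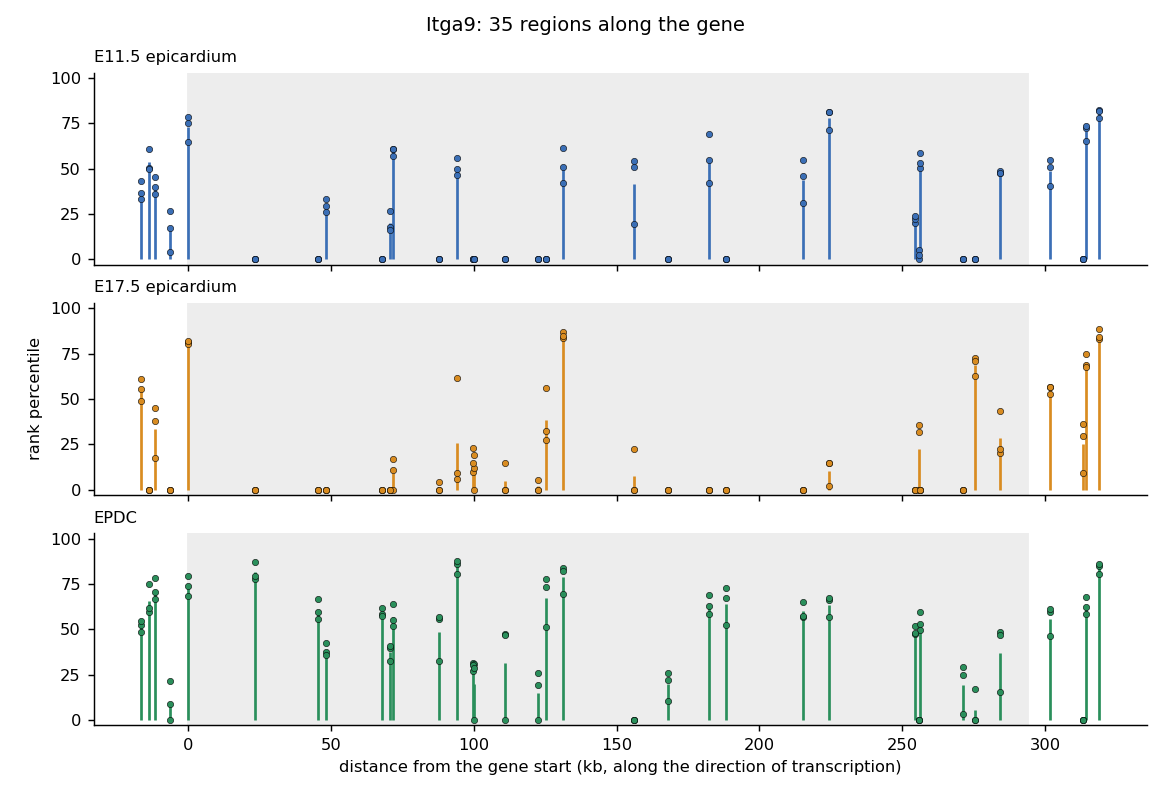
Rank percentile of the 35 tested Itga9 regions by distance from the gene start in kb, with points for the libraries, lines for the group mean and grey shading for the gene body. The region at 23.42 kb has values only in EPDCs (77.8 to 87.3), and that at 275.42 kb is high only at E17.5 (62.8 to 72.6).

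Another set of Itga9 regions was present in the early epicardium and in EPDCs but not at E17.5. At 13.69 kb upstream the values were 60.7, 50.3 and 49.9 at E11.5, 0 in all E17.5 libraries and 75.1, 59.7 and 61.6 in EPDCs. E17.5 was lower than E11.5 (-53.6, SE 5.58, adjusted p = 0.000101) and EPDCs higher than E17.5 (65.5, SE 5.58, adjusted p = 1.88e-05), while EPDCs and E11.5 differed by 11.9 (adjusted p = 0.122). At 224.51 kb a summit was present throughout, with 81.2, 81.5 and 71.1, then 14.7, 1.95 and 14.4, then 66.2, 56.6 and 67.4. The loss at E17.5 was there -67.6 points (SE 5.77, adjusted p = 3.29e-05).

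The opposite pattern occurred at 275.42 kb, where E17.5 had 72.6, 71.1 and 62.8, E11.5 had 0, 0.0485 and 0 and EPDCs had 0, 0 and 17. E17.5 exceeded E11.5 by 68.8 (SE 5.32, adjusted p = 1.93e-05) and EPDCs fell under it (-63.2, SE 5.32). An intronic region at 125.14 kb was shared by E17.5 and EPDCs and had no summit in any E11.5 list, with 56.0, 32.2 and 27.1 at E17.5 and 51.5, 77.5 and 73.2 in EPDCs. It was higher than E11.5 by 38.4 at E17.5 (SE 9.0, adjusted p = 0.00842) and by 67.4 in EPDCs (SE 9.0, adjusted p = 0.000448), whereas the 29.0 between EPDCs and E17.5 (adjusted p = 0.0237) was lost without any of E17.5 replicates 2 and 3 and E13.5 replicates 1 and 2 and fell to 11.2 with the ranking by fold enrichment. The call between the stages was lost with the replicate number as a block. It is shown as the single region of the 128 with a value in all 6 E17.5 and EPDC libraries and in no E11.5 library, with an AP-1 site (TGANTCA, bound by JUN and FOS proteins), a GATA site (AGATAA or its reverse complement) and an E-box in capitals, in this order.
Itga9 region 125.14 kb from the start, chr9:118731684-118731982, GRCm38.p6 (mm10), plus strand: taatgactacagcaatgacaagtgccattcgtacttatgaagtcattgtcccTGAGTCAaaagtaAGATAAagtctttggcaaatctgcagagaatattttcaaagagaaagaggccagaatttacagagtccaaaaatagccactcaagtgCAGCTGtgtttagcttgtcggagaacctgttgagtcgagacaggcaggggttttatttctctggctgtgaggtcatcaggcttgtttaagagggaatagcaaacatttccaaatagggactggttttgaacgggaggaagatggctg

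Itgb1 (chr8:128685654-128733200, plus strand) encodes the beta subunit that pairs with ITGA4, ITGA5, ITGA6, ITGA8, ITGA9 and ITGAV. Its promoter ranked near the top of every library (98.2, 98.8 and 97.1 at E11.5, 95.7, 96.3 and 95.6 at E17.5, 97.3, 97.9 and 97.3 in EPDCs) and was called in no comparison. A region 5.54 kb upstream (chr8:128679859-128680359, intergenic) rose from 66.3, 60.7 and 66.5 at E11.5 to 88.8, 86.5 and 81.8 at E17.5 and stood at 94.8, 96.5 and 96 in EPDCs. The groups did not overlap. E17.5 exceeded E11.5 by 21.2 (SE 2.17, adjusted p = 9.4e-05) and EPDCs exceeded E11.5 by 31.2 (SE 2.17, adjusted p = 1.18e-05). EPDCs also exceeded E17.5 by 10.1 (SE 2.17, adjusted p = 0.00411), a size that fell under 10 points without E17.5 replicate 3 (8.14), E13.5 replicate 1 (9.71) or E13.5 replicate 2 (9.95) and in 2 of the other alternatives, down to 6.66. This region is shown because it was the Itgb1 region called in all 3 comparisons, and because the capitals mark a TEAD site (ACATTCC or its reverse complement, bound by TEAD factors), an E-box and an AP-1 site within it.
Itgb1 region 5.54 kb upstream, chr8:128679960-128680258, GRCm38.p6 (mm10), plus strand: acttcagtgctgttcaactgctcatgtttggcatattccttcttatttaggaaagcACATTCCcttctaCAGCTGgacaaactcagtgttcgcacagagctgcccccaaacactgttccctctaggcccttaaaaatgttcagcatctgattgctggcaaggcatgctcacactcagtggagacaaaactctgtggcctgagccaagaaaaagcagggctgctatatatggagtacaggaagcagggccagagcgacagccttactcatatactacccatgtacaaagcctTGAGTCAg

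The third tested Itgb1 region, in an intron 23.83 kb from the start, had 31.2, 40.5 and 35.1 at E11.5, 0 in all E17.5 libraries and 0, 35.1 and 38.8 in EPDCs. It was lower at E17.5 than at E11.5 (-35.6, SE 9.14, adjusted p = 0.013). The EPDC libraries overlapped E11.5, and the E12.5 library had no summit there.

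The next 4 genes encode subunits of receptors that recognise the RGD sequence of fibronectin, vitronectin, nephronectin or latent TGF-beta. Itga5 (chr15:103344286-103366763, minus strand), the fibronectin receptor subunit, had a promoter that was called in no comparison, with 85.3, 82.8 and 80.8 at E11.5, 87.3, 90.0 and 91.4 at E17.5 and 84.4, 88.5 and 83.5 in EPDCs. An intergenic region 10.3 kb upstream had 49.0, 63.8 and 61.0, then 57.9, 38.1 and 58.9, then 88.7, 93.5 and 93.0 in EPDCs. EPDCs lay above all epicardial libraries, by 33.8 against E11.5 (SE 6.15, adjusted p = 0.0024) and by 40.1 against E17.5 (SE 6.15, adjusted p = 0.000605). An intronic region at 7.95 kb moved the other way, from 81.7, 80.4 and 74.4 in the E11.5 and 74.0, 82.7 and 81.3 in the E17.5 libraries to 50.3, 10.7 and 12.46 in EPDCs. EPDCs were lower there than both stages (-54.3 and -54.9, SE 9.67, adjusted p = 0.00215 and 0.00135). The upstream region is shown as the Itga5 region highest in EPDCs, with 2 E-boxes in capitals.
Itga5 region 10.3 kb upstream, chr15:103376919-103377217, GRCm38.p6 (mm10), plus strand: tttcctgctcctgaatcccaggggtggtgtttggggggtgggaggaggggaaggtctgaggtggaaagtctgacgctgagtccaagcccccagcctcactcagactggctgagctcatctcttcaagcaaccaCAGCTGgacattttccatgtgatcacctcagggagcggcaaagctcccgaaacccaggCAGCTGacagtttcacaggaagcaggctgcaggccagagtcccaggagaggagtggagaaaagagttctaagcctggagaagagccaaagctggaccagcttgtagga

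**Figure D5:**
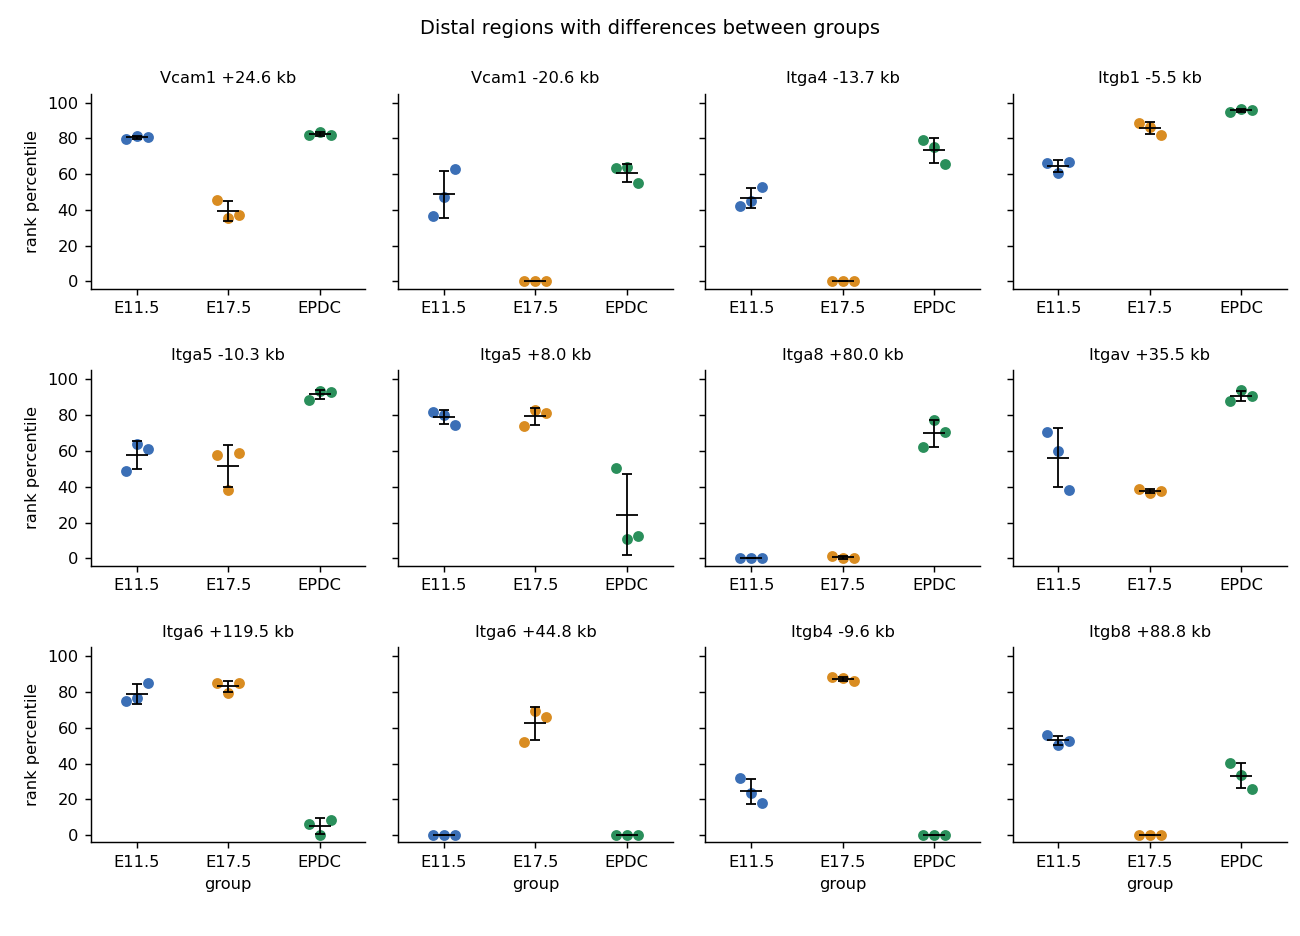
Rank percentile of 12 distal regions in each library (points) with the mean and SD of the 3 libraries of each group (bars), titled by gene and distance from its start in kb. The Itga5 regions at -10.3 and +7.95 kb go in opposite directions in EPDCs (88.7 to 93.5 and 10.7 to 50.3).

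Itga8 (chr2:12106632-12301922, minus strand), the nephronectin receptor subunit, had a promoter at 85.5, 86.5 and 85.3, then 85.7, 83.1 and 85.0, then 87.4, 91.4 and 89.1, called in no comparison. An intronic region 80.02 kb from the start had 62.0, 77.2 and 70.6 in EPDCs, no summit in the E11.5 lists, and 1.43, 0 and 0 at E17.5. EPDCs exceeded the stages by 69.9 and 69.5 (SE 4.18, adjusted p = 5.09e-06 and 2.7e-06). At 176.73 kb the early epicardium stood apart, with 58.2, 61.3 and 62.7 at E11.5, 1.43, 0 and 0 at E17.5 and 15.4, 2.57 and 0.402 in EPDCs. That region was lower than E11.5 at E17.5 (-60.3, SE 4.38, adjusted p = 1.39e-05) and in EPDCs (-54.6, SE 4.38, adjusted p = 2.63e-05). The strongest distal region of the gene, 23.73 kb upstream, ranked between 92.6 and 98.2 in all libraries.

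Itgav (chr2:83724397-83806916, plus strand) encodes the alpha subunit of several vitronectin and TGF-beta-activating receptors. Its promoter had 85.9, 78.8 and 83.1 at E11.5, 81.3, 81.4 and 85.4 at E17.5 and 92.8, 88.0 and 89.9 in EPDCs, and the EPDC differences of 7.62 and 7.52 (adjusted p = 0.0181 and 0.0148) stayed under 10 points. An intronic region at 35.53 kb had 70.3, 60 and 38.1 at E11.5, 38.8, 36.5 and 37.8 at E17.5 and 88.1, 93.8 and 90.8 in EPDCs. EPDCs were above all epicardial libraries, by 34.8 (SE 7.24, adjusted p = 0.00483) and 53.2 (SE 7.24, adjusted p = 0.000299). A region at 9.72 kb, also intronic, was ordered differently, with 62.5, 64.3 and 66.0 at E11.5, 83.0, 78.6 and 77.4 at E17.5 and 48.1, 46.6 and 55.8 in EPDCs. Its 3 groups did not overlap, and all 3 differences passed (15.4, -14.1 and -29.5, SE 3.44, adjusted p = 0.0067, 0.0105 and 0.000121), although the difference between the stages fell under 10 points with the percentile among all summits (8.02) or the ranking by fold enrichment (9.53), and both differences from E11.5 were short of 1 on the log2 depth-normalized score (0.75 and -0.77). At 18.02 kb only EPDC lists held a summit, with 39.2, 46.9 and 45.4. The region at 35.53 kb is shown as the Itgav distal region with the largest difference between EPDCs and E17.5, with an E-box and a GATA site in capitals.
Itgav region 35.53 kb from the start, chr2:83759777-83760075, GRCm38.p6 (mm10), plus strand: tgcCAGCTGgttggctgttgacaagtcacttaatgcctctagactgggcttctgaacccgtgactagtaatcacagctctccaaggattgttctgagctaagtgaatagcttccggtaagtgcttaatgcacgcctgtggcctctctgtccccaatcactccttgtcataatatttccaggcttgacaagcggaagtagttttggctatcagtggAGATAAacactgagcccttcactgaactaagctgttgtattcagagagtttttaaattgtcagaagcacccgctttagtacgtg

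Itgb8 (chr12:119158022-119238802, minus strand) encodes a beta subunit that pairs with ITGAV. Its promoter stood between 90.2 and 96.8 in all libraries and was called in no comparison. An intergenic region 88.85 kb downstream of the start, past the end of the gene, had 55.9, 50.7 and 52.5 at E11.5, 0 in all E17.5 libraries and 40.3, 33.4 and 26.0 in EPDCs. The 3 groups did not overlap, and the differences were -53.0 for E17.5 against E11.5 (SE 4.37, adjusted p = 2.74e-05), -19.8 for EPDCs against E11.5 (SE 4.37, adjusted p = 0.00645) and 33.2 for EPDCs against E17.5 (SE 4.37, adjusted p = 0.000245). On the log2 depth-normalized score the second was -0.96, short of 1 in size. In an intron at 20.82 kb the E17.5 libraries were alone in ranking above 10, with 36.6, 27.2 and 48.7 (37.5 over E11.5, SE 5.24, adjusted p = 0.000532). Weaker summits were listed in all 3 E11.5 libraries, and with the percentile among all summits the difference was 23.2 and did not pass. At 8.13 kb EPDCs were lowest, with 20.9, 0 and 9.62 against 60.4, 49.4 and 38.5 in the E11.5 and 38.2, 42.9 and 33.5 in the E17.5 libraries (-39.2 and -28.0, SE 7.16, adjusted p = 0.00245 and 0.00974), of which the second did not pass with the percentile among all summits (-23.7).

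Itga6 and Itgb4 encode subunits of laminin receptors, and together they form the integrin of hemidesmosomes in epithelia. Itga6 (chr2:71745616-71858416, plus strand) has several annotated transcript starts. The region at its outermost start, 0.55 kb upstream and within an intron of Gm13647, had 0 in all epicardial libraries and 59.5, 70.2 and 74.6 in EPDCs, a difference of 68.1 from either stage (SE 4.18). It met the rule of a value in at least 3 libraries through EPDCs alone, so its call adds no support beyond these values. Weaker summits were listed there in all 3 E11.5 libraries and in no E17.5 library. The region at the start of another transcript, 41.33 kb downstream (chr2:71786695-71787195), ranked 87.4, 89.8 and 90.3, then 90.5, 92.4 and 89.1, then 86.0, 82.3 and 85.4, and was called in no comparison.

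Within and beyond Itga6, several regions were absent or nearly so in EPDCs. An intronic region at 56.26 kb had 48.9, 40.8 and 48.0 at E11.5, 74.1, 69.8 and 71.4 at E17.5 and no summit in the EPDC lists. It rose by 25.9 between the stages (SE 4.21, adjusted p = 0.00125; 0.89 on the log2 depth-normalized score, short of 1), and EPDCs were lower than both stages (-45.9 and -71.8, SE 4.21, adjusted p = 5.44e-05 and 2.35e-06). A region 119.52 kb from the start, downstream of Itga6 and closest to the start of Pdk1, had 74.9, 76.5 and 85.3, then 85.0, 79.4 and 85.2, then 6.55, 0 and 8.40 (EPDC differences -73.9 and -78.2, SE 4.59, adjusted p = 6.32e-06 and 2.38e-06).

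Other Itga6 intronic regions ranked highest in 1 group each. At 13.66 kb E11.5 had 67.3, 47.5 and 56.5 and all other libraries 0, although weaker summits were listed in 2 E17.5 libraries (-57.1 for E17.5 and for EPDCs, SE 4.77). At 44.79 kb E17.5 had 52.3, 69.5 and 66.0 with no summit in any other list (62.6 over E11.5, SE 4.54). The regions at 13.66 and 44.79 kb each met the rule of a value in at least 3 libraries through 1 group alone. Their calls therefore add no support beyond these values. At 34.04 kb EPDCs had 58.7, 68.6 and 71.1 against 0 in the E11.5 and 14.7, 0 and 8.69 in the E17.5 libraries, with a summit listed in all 3 E17.5 lists and 1 E11.5 list. The region at 44.79 kb is shown as an intronic site listed at E17.5 alone, with a GATA site, an E-box and an AP-1 site in capitals.
Itga6 region 44.79 kb from the start, chr2:71790257-71790555, GRCm38.p6 (mm10), plus strand: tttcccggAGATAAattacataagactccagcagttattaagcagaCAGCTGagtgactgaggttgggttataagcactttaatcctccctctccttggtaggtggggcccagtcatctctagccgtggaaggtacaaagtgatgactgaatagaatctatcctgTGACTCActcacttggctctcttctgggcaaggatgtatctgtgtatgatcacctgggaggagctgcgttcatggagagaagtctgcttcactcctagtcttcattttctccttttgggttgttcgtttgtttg

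Itgb4 (chr11:115974709-116008412, plus strand) had a promoter at 73.3, 63.3 and 45.3 at E11.5, 83.0, 88.7 and 88.4 at E17.5 and 69.5, 43.1 and 52.0 in EPDCs. E17.5 lay above both other groups, which overlapped. The excess over E11.5 was 26.0 (SE 8.19, adjusted p = 0.0316) and did not pass without E11.5 replicate 2 or 3, any E17.5 replicate or E13.5 replicate 2, where it ranged from 18.4 to 27.9. With the percentile among all summits it fell to 15.9 and did not pass, nor did it with the replicate number as a block. EPDCs were lower than E17.5 (-31.9, SE 8.19, adjusted p = 0.00996), but not with the ranking by fold enrichment (-23.7). A region 9.59 kb upstream, in the last exon of the neighbouring gene Sap30bp (chr11:115964869-115965369), separated the groups more widely, with 32.0, 23.5 and 18.1 at E11.5, 88.6, 87.8 and 86.4 at E17.5 and no summit in the EPDC lists. E17.5 exceeded E11.5 by 63.1 (SE 4.61, adjusted p = 1.42e-05), and EPDCs were lower than E11.5 (-24.5, SE 4.61, adjusted p = 0.00284) and E17.5 (-87.6, SE 4.61, adjusted p = 1.39e-06). At 3.5 kb upstream E17.5 again stood apart, with 52.3, 47.5 and 52.2 against 0, 0 and 21.7 at E11.5 and 0 in EPDCs (43.4 over E11.5, SE 5.76, adjusted p = 0.000397).

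Not every region near Itgb4 was highest at E17.5. In a Sap30bp intron 18.04 kb upstream the values were 55.6, 46.2 and 49.7 at E11.5, 0 in all E17.5 libraries and 77.4, 63.1 and 59.4 in EPDCs. E17.5 was lower than E11.5 (-50.5, SE 5.63, adjusted p = 0.000148) and EPDCs were higher than E17.5 (66.6, SE 5.63, adjusted p = 1.78e-05). The sequence is shown as the counterpart, near the same promoter, of the regions gained at E17.5, with a TEAD site in capitals.
Itgb4 region 18.04 kb upstream, chr11:115956524-115956822, GRCm38.p6 (mm10), plus strand: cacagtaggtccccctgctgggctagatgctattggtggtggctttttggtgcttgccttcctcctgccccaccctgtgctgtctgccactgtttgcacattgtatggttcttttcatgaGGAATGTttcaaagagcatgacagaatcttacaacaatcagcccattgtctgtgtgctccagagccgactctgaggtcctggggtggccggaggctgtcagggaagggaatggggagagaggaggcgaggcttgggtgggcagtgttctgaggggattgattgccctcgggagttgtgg

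Motif letters were counted on both strands of the regions, and a match is a description of the sequence. An E-box (CAGCTG) was present in 34.7% of all tested regions, an AP-1 site (TGANTCA) in 23.3%, a GATA site (AGATAA) in 27.8%, a TEAD site (ACATTCC) in 12.1% and a T-box site (AGGTGTGA) in 1.86%. Among the 128 regions of the 10 genes the shares were 40.6%, 28.1%, 22.7%, 10.9% and 0.781%. Of the 28 regions higher in EPDCs than in both stages, 16 held an E-box (57.1%, against 43.3% of all 16837 such regions). Of the 18 regions higher at E17.5 than at E11.5, 10 held an AP-1 site (55.6%, against 37.1% of all 19220 such regions), and so did 5 of the 9 regions lower in EPDCs than in both stages (55.6%, against 40.1%). Higher shares than in the matching regions of the whole table were not limited to these sets: AP-1 was in 8 of the 28 regions higher in EPDCs (28.6%, against 16.5%), and the E-box in 14 of the 27 lower at E17.5 than at E11.5 (51.9%, against 38.8%) and in 8 of the 18 higher (44.4%, against 32.2%). Other shares were lower than in the matching regions. A GATA site was in 4 of the 27 regions lower at E17.5 than at E11.5 (14.8%, against 34.9%) and in 5 of the 28 higher in EPDCs (17.9%, against 30.0%). An E-box was in 2 of the 9 lower in EPDCs (22.2%, against 33.7%). These shares rest on 2 to 16 regions each, and no test was made of them.

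The E12.5 EPDC library could be set beside the E13.5 libraries only as values, since it was 1 library. At 11 of the 128 regions (8.59%, against 6.31% of all tested regions) it was lower than both E13.5 libraries by more than 20 points, and at 3 (2.34%, against 5.36%) it was higher. Of the 12 epicardial marker promoters, Upk3b also stood higher in it, as given above, as did Upk1b (82.7 against 61.5 and 67.7) and Krt18 (55.4 against 34.0 and 23.4). Wt1, Tbx18 and Pdpn were higher by less. Tcf21 (89.4 against 92.1 and 90.9) and Bnc1 (82.3 against 83.8 and 83.1) were lower, and Aldh1a2 lay between the E13.5 libraries. Msln, Krt8 and Krt19 had 0 in all EPDC libraries. The part of these markers in the contrasts was not tested. A region 0.66 kb from the Itgav start had 0 at E12.5 and 65.9 and 76.9 at E13.5, and an Itga9 region at 111 kb had 0 against 47.3 and 47.0. The Itga5 region at 7.95 kb went the other way, with 50.3 at E12.5 and 10.7 and 12.46 at E13.5, and so did the Vcam1 region 11.73 kb upstream (31.8 against 0 and 0).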

How the data were processed

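Per the labels, reads were aligned to mm10 and peaks were called with MACS2 2.2.9.1. The deposited files are peak lists with a fold enrichment ratio, a −log10 p-value, a −log10 q-value and a summit offset per summit, used as the authors deposited them. No read counts are among the files used here, so total depth was unknown. Only a background level per library could be recovered from the fold enrichment and p-value. Replicates are pooled hearts, and the limma p-values rest on the spread between pools within the groups. In the EPDC group that spread also includes embryonic day. A group with no ranked summit in any of its libraries had no spread, yet entered the estimate shared by the groups. For such regions the SE and p-value do not measure the spread between pools in every group.

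All summits of the 9 lists were merged, the strongest first, into non-overlapping regions reaching 250 bp to either side of a summit. The 94909 strongest summits of each list were ranked. Each region took the rank percentile of its strongest summit per library (0 where none was among these). limma 3.58.1 in R 4.3.3 (lmFit, eBayes with trend) was fitted to the 108772 regions with a value in at least 3 libraries, over 3 groups sharing 1 estimate of the spread, with Benjamini-Hochberg adjustment over all of them. The E12.5 and E13.5 EPDC libraries formed 1 group. Gene positions came from GENCODE release M21 and sequence from GRCm38.p6, both on mm10. Named regions were each gene's promoter region (the strongest within 1 kb of the start), its strongest distal region, and up to 2 called regions per comparison and direction; all other Itga9 positions, the start of another Itga6 transcript and the E12.5 contrasts were picked after their values were seen. Summit numbers were compared by exact permutation tests. Alternatives were another ranking measure, other cut-offs, an overlap rule, a depth-normalized log2 score, a replicate block and each library left out; the 6 epicardial libraries alone, member regions without other genes' starts and the summit-number alternatives were added after seeing the data. The 10 genes and all lists were chosen with earlier results of these data known.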

Additional observations from a re-analysis of the deposited data

How the results depend on the processing

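Of 109 called differences at named regions, 74 kept direction and call under every alternative run and 95 with any 1 library left out. Over 1699 alternative values, 1553 kept the call, 143 lost it and 3 reversed: the Itga4 promoter ranked by fold enrichment (14.2 for E17.5 against E11.5 and -0.755 for EPDC against E17.5) and the Itga5 region at 7.4 kb with overlapping intervals (0.541). With 1 library left out, the 18 regions higher and 27 lower at E17.5 became 15 to 18 and 23 to 27, the 29 and 15 for EPDCs against E11.5 became 27 to 33 and 14 to 16, and the 45 and 22 against E17.5 became 40 to 49 and 20 to 22. The 18 became 11 with the percentile among all summits, which moves with list length, and the 15 became 23 with the log2 depth-normalized score. The percentile among all summits moved the median of all regions by -5.51 (E17.5) and -4.47 points (EPDCs) in the 2 comparisons with E11.5, and the shares called higher and lower from 17.7% and 21.3% to 10.8% and 28.4% for E17.5, and from 18.5% and 20.9% to 12.2% and 25.9% for EPDCs. On the log2 score the medians were -0.21 and -0.31, the shares 12.2% and 24.9%, and 11.3% and 25.6%, and 18 of the 109 differences lost their call. With all summits of each list, chosen after seeing the data, the differences in summit number became -5.0 from -1.0 (Itga8, E17.5 against E11.5), 3.0 from 5.0 (Itga8, EPDC against E11.5) and -14.3 from -7.33 (Itga9, E17.5 against E11.5). The causes were not tested beyond what these alternatives change by construction.

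The epicardial stages share replicate numbers, which only name separate pools. Deviations from the group mean correlated at 0.0214, 0.0536 and -0.0427 for the same number and at -0.0765 to 0.0521 for different numbers, so the numbers did not pair the samples. A fit of the 6 epicardial libraries with the replicate block called 11 regions higher and 19 lower, where the same libraries without it, a fit chosen after seeing the data, gave 17 and 24 and all 9 libraries 18 and 27.

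Total depth was unknown and the background level unequal, so weak summits missing from a shallow list could not be told from closed chromatin. With 3 libraries per group, the exact permutation test of summit numbers could not go below 0.10.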

Other observations

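The promoters of other integrin genes, integrin ligands and integrin adaptors, lists taken from general knowledge, differed at 0 to 3 genes per list, direction and comparison, beside the shares of all protein-coding promoter regions given above. Here too only the strongest promoter region of each listed gene was taken. The shares above that background were, among those with at least 2 genes, other integrins higher in EPDCs than at E11.5 (22.2%, against 8.79%), adaptors lower in EPDCs than at E17.5 (23.1%, against 11.8%) and adaptors higher at E17.5 than at E11.5 (15.4%, against 10.5%), each resting on 2 or 3 genes. Of 9 tested promoters of other integrins, Itga2, a collagen receptor subunit, was lower at E17.5 than at E11.5 (86.7, 87.7 and 89.1 against 76.0, 78.0 and 74.3, difference -11.8). Itga7 and Itgb6 were higher in EPDCs than at E11.5 (15.3 and 19.0) and Itga3, a laminin receptor subunit, was lower in EPDCs than at E11.5 and E17.5 (-14.9 and -18.5), with 80.3, 71.7 and 73.3 in EPDCs and 89.0 to 95.5 in the epicardial libraries. Of 13 ligand promoters, Emilin1 was lower at E17.5 than at E11.5 (-10.02) and higher in EPDCs than at E17.5 (17.4), Lama3 was lower in EPDCs than at E17.5 (-10.5), and none differed between EPDCs and E11.5.

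Of 13 adaptor promoters, Src, a kinase that acts downstream of integrins, had 68.2, 62.2 and 67.3 at E17.5 and 0 in the other 6 libraries (65.9 over E11.5). Bcar1 was higher than E11.5 at E17.5 (32.5) and in EPDCs (43.7). Parvb was lower in EPDCs than at E11.5 (-21.6) and E17.5 (-26.2), and Pxn, which encodes paxillin, was lower in EPDCs than at E17.5 (-10.2). All these differences passed limma at the same thresholds as the regions of the 10 genes.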
